A study of Rattus norvegicus with 17 samples.

Results

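The Smad proteins and the targets and regulators that act around them were followed in rat liver after ligation of the common bile duct, with and without ghrelin. The members were 10 genes listed by symbol: Inhba, Bambi, Smad2, Smad3, Smad4, Smad6, Smad7, Skil, Id1 and Id3. A probe set, the group of short oligonucleotides that reads 1 transcript region on the array, was taken when its annotation listed exactly 1 of these symbols. This gave 18 of 31099 probe sets on the array, for 10 of the 14218 genes that have a probe set with a single symbol. This rule uses no measured value. Of the 18 probe sets, 13 had a deposited intensity above 15.5 (3.95 on the log2 scale, the median of all deposited values) on at least 5 arrays and were tested, and all 10 genes had at least 1 of them. The other 5 lay under that level on every array.

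Livers came from 17 rats, with 1 Affymetrix Rat Genome 230 2.0 array per rat. In the ligated ghrelin group (5 rats) the bile duct was tied at week 7 and ghrelin, a stomach peptide hormone that also releases growth hormone, was infused under the skin from an osmotic pump at 10 micrograms per kg per day for 2 weeks. In the ligated saline group (6 rats) the duct was tied at week 7 and saline was infused in the same way. In the sham group (6 rats) the abdomen was opened at week 7 without ligation and saline was infused. All livers were taken at week 9. Every rat thus had surgery and a pump, and no group received ghrelin without ligation. The labels used give no strain, sex or batch. Each array is named here by its group and a running number that follows the order of deposit and carries no other meaning.

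Ligands of the TGF-beta superfamily bind pairs of serine/threonine kinase receptors on the cell surface. Receptors for TGF-beta and activin phosphorylate Smad2 and Smad3, and receptors for bone morphogenetic proteins (BMPs) phosphorylate Smad1, Smad5 and Smad9. These receptor-activated Smads join Smad4 and bind DNA in the nucleus, while Smad6 and Smad7 inhibit the pathway and are themselves induced by it. In liver, TGF-beta is best known for driving stellate cells to make collagen, and BMP signalling for setting hepcidin (Hamp) in hepatocytes. Id1 and Id3, inhibitors of basic helix-loop-helix transcription factors, are classical early targets of BMP signalling. Array values follow mRNA and not phosphorylation, so they show the level of these transcripts alone.

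The upstream sequences of the 4 genes with the largest increases after ligation are shown here because Smad complexes are known to bind short motifs in such regions. They are the bases that precede the outermost annotated start of each gene, within 250 bases of the start used in the RefSeq promoter table, in the rat assembly GRCr8 and written 5′ to 3′ on the gene's strand. Capitals mark the letters CAGAC (or GTCTG on the other strand), the Smad binding element, and GGCGCC, a GC-rich motif of BMP-responsive regions.
Skil, minus strand, chr2:114203664-114203822: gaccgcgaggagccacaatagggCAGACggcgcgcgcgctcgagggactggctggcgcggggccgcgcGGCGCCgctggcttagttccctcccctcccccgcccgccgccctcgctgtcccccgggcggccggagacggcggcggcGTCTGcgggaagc
Bambi, minus strand, chr17:58821004-58821253: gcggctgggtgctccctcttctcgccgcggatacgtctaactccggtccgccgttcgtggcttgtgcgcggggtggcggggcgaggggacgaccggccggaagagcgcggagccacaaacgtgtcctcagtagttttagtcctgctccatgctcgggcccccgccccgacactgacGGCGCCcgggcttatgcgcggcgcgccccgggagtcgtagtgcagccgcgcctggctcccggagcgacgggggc
Id1, plus strand, chr3:161671314-161671524: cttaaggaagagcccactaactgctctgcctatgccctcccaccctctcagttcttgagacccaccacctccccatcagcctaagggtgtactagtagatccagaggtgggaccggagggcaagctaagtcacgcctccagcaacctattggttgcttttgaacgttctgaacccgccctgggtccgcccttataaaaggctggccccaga
Id3, plus strand, chr5:153656041-153656252: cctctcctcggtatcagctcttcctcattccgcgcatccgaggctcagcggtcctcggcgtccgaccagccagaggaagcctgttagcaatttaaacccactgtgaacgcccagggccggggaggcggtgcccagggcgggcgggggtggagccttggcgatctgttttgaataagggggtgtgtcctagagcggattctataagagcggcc

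The promoter table held 10 promoters of 9 member genes, and the motifs were searched on both strands of the full 250 bases before each start. CAGAC was found in 1 of these 10, that of Skil, where it began 227 and 104 bases before the start. Of all 33469 promoters in the table, 42.9% held it in a window of the same length. GGCGCC was found in 5 of the 10, at 182 and 9 bases before the start of Skil, 74 before Bambi, 96 and 36 before Smad7, and once in each of 2 Smad2 promoters, against 8.69% of all promoters. Both Smad2 promoters count towards the 5. The Smad2 and Inhba windows lie wholly inside the annotated gene, past its outermost start, as does the Skil site at 9 bases. The palindrome GTCTAGAC, which joins GTCT to its reverse complement AGAC, was in 0 of the 10 and in 0.173% of all. The promoters of Id1 and Id3 held none of these letters in this window, which says nothing of sequence outside it.

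Ligation raised 6 of the 10 member genes and lowered none. The groups did not overlap for the same 6 genes, which were Id1, Bambi, Skil, Id3, Smad3 and Smad4. Ligated saline minus sham asks what 2 weeks of bile duct obstruction did to these transcripts, and a call here means an adjusted p under 0.05 in limma, with Benjamini-Hochberg adjustment over all 15965 tested probe sets. Of all 9736 genes tested, 64.7% were called in either direction, 37.5% as higher and 27.2% as lower, and 44.5% did not overlap between the groups (25.9% above and 18.6% below sham). The 60% of member genes called is therefore near the background for calls in either direction. The median change of the 10 genes was 0.76 on the log2 scale, against 0.07 over all genes tested. Smad2, Smad6, Smad7 and Inhba were not called. The count of 6 higher was the same under each scaling tried, but quantile normalization added 1 lower member, Smad6 (-0.24, limma, adjusted p = 0.0123). Scaling shifts all values together: the tested probe sets had a median change that was 0.04 as deposited, -0.11 under quantile normalization and -0.15 when every array was given the same median, and the share of called probe sets that were higher was 55.7%, 42% and 39%.

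**Figure D1:**
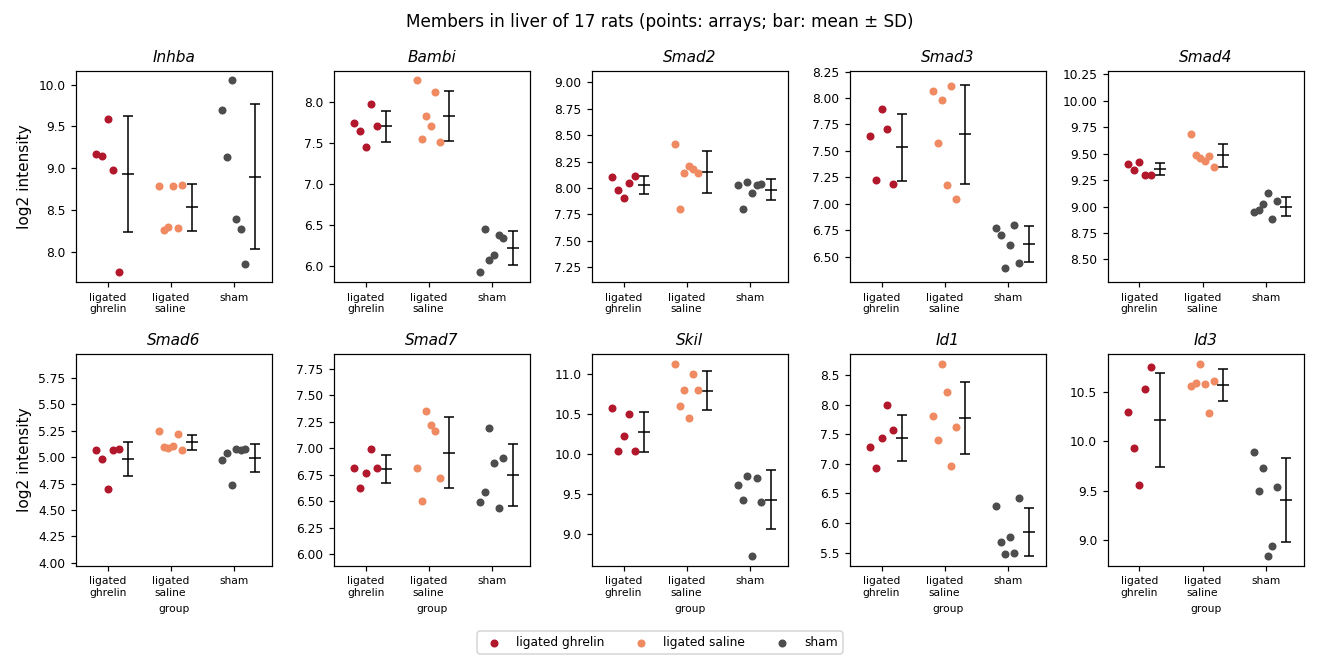
Log2 intensity (y axis) of the representative probe set of each member in ligated ghrelin, ligated saline and sham livers (x axis), with 1 point per array and a bar for the mean ± SD (n = 5, 6 and 6). Each y axis spans at least 2 log2 units. All points of both ligated groups lie above all sham points for Bambi, Smad3, Smad4, Skil and Id1, and the groups overlap for Inhba, Smad2, Smad6 and Smad7.

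Among the receptor-level regulators, Bambi rose 3.05-fold. Bambi encodes a membrane protein that resembles a type I receptor but lacks the kinase domain, so it dampens TGF-beta, activin and BMP signals, and the rat gene lies on chromosome 17 (58816438 to 58821003 in GRCr8). Its log2 intensity was 7.74, 7.64, 7.45, 7.97 and 7.71 in the 5 ligated ghrelin livers. In ligated saline livers the lowest, median and highest values were 7.51, 7.77 and 8.26, and in sham livers 5.92, 6.24 and 6.45. Every ligated liver, with either infusion, was above every sham liver. The change for ligation was 1.61 ± 0.136 on the log2 scale (SE, limma, adjusted p = 5.23e-08), and all 6 ligated saline arrays exceeded the sham mean. Its upstream sequence, shown above, holds a single GGCGCC.

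Smad3, which carries the TGF-beta and activin signal to DNA, rose 2.06-fold (chromosome 8, 73022204 to 73132324). Probe set 1389127_at read 7.64, 7.22, 7.90, 7.71 and 7.19 in ligated ghrelin livers. The lowest, median and highest values were 7.04, 7.78 and 8.11 in ligated saline livers and 6.39, 6.65 and 6.80 in sham livers. The ligated saline arrays spread more widely than the sham arrays, with an SD of 0.469 against 0.171, and still did not overlap them. The change was 1.04 ± 0.187 (limma, adjusted p = 0.000142). The second Smad3 probe set, 1369528_at, stayed between 2.02 and 2.10 on every array and was not tested.

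Smad4, the partner shared by TGF-beta and BMP Smads, showed a smaller increase of 1.40-fold (chromosome 18, 69518988 to 69549684). Probe set 1386984_at read 9.40, 9.35, 9.42, 9.30 and 9.30 in ligated ghrelin livers. In ligated saline livers the lowest, median and highest values were 9.37, 9.47 and 9.69, and in sham livers 8.88, 8.99 and 9.13. The groups were tight and did not overlap, and the change was 0.49 ± 0.0655 (limma, adjusted p = 8e-06). A second tested probe set, 1367910_at, gave 0.43 ± 0.164 (limma, adjusted p = 0.0308) with overlapping groups, and its call was lost without sham 4, sham 5, ligated saline 1, ligated saline 4 or ligated saline 5 (adjusted p = 0.0598, 0.0789, 0.0520, 0.0525 and 0.0573).

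Smad2, the other TGF-beta and activin Smad, was not called. Its log2 intensity was 8.10, 7.98, 7.91, 8.05 and 8.11 in ligated ghrelin livers. It ranged from 7.80 to 8.42 with a median of 8.16 in ligated saline livers, and from 7.80 to 8.06 with a median of 8.03 in sham livers. The ligated saline and sham groups had the same lowest value to 2 decimals, and the difference was 0.16 with a 95% interval of -0.03 to 0.35 (limma, adjusted p = 0.121). Without ligated saline 2, the lowest array of its group, the difference was 0.23 (limma, adjusted p = 0.0136). The interval reaches neither the 1.04 of Smad3 nor the 0.49 of Smad4. Differences between genes within an array were compared for 10 pairs, chosen after the values were seen, with exact two-sided permutation tests adjusted over the 10 pairs. The adjustment does not correct for that choice, which holds for every pair reported here and below. Ligation changed Smad3 by 0.88 more than Smad2 and Smad4 by 0.32 more than Smad2 (exact permutation p = 0.00216 each, the smallest that 6 against 6 arrays can give, adjusted p = 0.00309).

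Neither of the inhibitory Smads was called for ligation. Smad7, which blocks type I receptors and brings ubiquitin ligases to them, read 6.81, 6.62, 6.77, 6.99 and 6.81 in ligated ghrelin livers. It ranged from 6.50 to 7.35 with a median of 6.98 in ligated saline livers, and from 6.43 to 7.19 with a median of 6.72 in sham livers. The ranges overlap almost completely, and the difference was 0.22 with a 95% interval of -0.10 to 0.54 (limma, adjusted p = 0.231). Bambi changed by 1.40 more than Smad7, without overlap (exact permutation p = 0.00216, adjusted p = 0.00309, n = 6 each). Smad6, the inhibitor that acts mainly on BMP signals, read 5.07, 4.98, 4.70, 5.07 and 5.08 in ligated ghrelin livers on probe set 1375121_at. Its lowest, median and highest values were 5.07, 5.10 and 5.25 in ligated saline livers and 4.74, 5.06 and 5.08 in sham livers. The difference was 0.14 with a 95% interval of -0.03 to 0.31 (limma, adjusted p = 0.143). Its direction depends on the scaling, since quantile normalization gave -0.24 (limma, adjusted p = 0.0123), and the mean of its 2 tested probe sets gave 0.23 (adjusted p = 0.0454). The probe sets 1377467_at and 1385928_at of Smad6 and 1368897_at and 1368898_at of Smad7 were under the filter level throughout.

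Skil, which encodes the corepressor SnoN that holds Smad complexes inactive on DNA, rose 2.57-fold (chromosome 2, 114175534 to 114203663). It read 10.57, 10.04, 10.22, 10.49 and 10.04 in ligated ghrelin livers. Ligated saline livers had lowest, median and highest values of 10.45, 10.79 and 11.12, and sham livers 8.73, 9.51 and 9.72. The lowest ligated liver of either group lay above the highest sham liver. The change was 1.36 ± 0.165 (limma, adjusted p = 2.48e-06), and it was 1.22 without sham 4, the array with the lowest Skil value. Skil changed by 1.15 more than Smad7 (exact permutation p = 0.00433, adjusted p = 0.00481, n = 6 each), although the differences overlapped between the groups. Its upstream sequence is the one among the member promoters that holds CAGAC.

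Id1 had the largest change of the 10 members, a 3.81-fold increase (chromosome 3, 161671525 to 161672691). Its log2 intensity was 7.29, 6.93, 7.43, 7.99 and 7.58 in ligated ghrelin livers. The lowest, median and highest values were 6.96, 7.71 and 8.69 in ligated saline livers and 5.47, 5.72 and 6.42 in sham livers. Ligated saline livers spread more widely than for most members, with an SD of 0.607, and none reached down to the sham range. The change was 1.93 ± 0.261 (limma, adjusted p = 8.18e-06).

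Id3 rose 2.24-fold (chromosome 5, 153656253 to 153657860). It read 10.29, 9.93, 9.56, 10.53 and 10.75 in ligated ghrelin livers. The lowest, median and highest values were 10.28, 10.59 and 10.78 in ligated saline livers and 8.84, 9.52 and 9.89 in sham livers. Ligated saline and sham did not overlap, while ligated ghrelin 3 fell inside the sham range. The change for ligation was 1.16 ± 0.202 (limma, adjusted p = 0.000107). Id1 and Id3 had their highest ligated saline value in array 3 and their lowest in array 5, in contrast to Bambi, Skil and Smad3, which were highest in arrays 1 and 5.

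The other 2 Id genes did not follow Id1 and Id3. Id2 averaged 11.99 ± 0.597 in ligated ghrelin livers (SD, n = 5), 11.79 ± 0.0664 in ligated saline livers and 11.64 ± 0.468 in sham livers (n = 6 each), and its ligation difference was 0.14 (limma, adjusted p = 0.605). Id4 fell, with 10.57 ± 0.298 in ligated ghrelin livers, 10.22 ± 0.290 in ligated saline livers and 11.27 ± 0.269 in sham livers, a ligation change of -1.05 ± 0.158 (limma, adjusted p = 2.56e-05). Within arrays, Id1 changed by 1.78 more than Id2 and by 2.97 more than Id4, and Id3 by 1.02 more than Id2 and by 2.21 more than Id4. None of these 4 differences overlapped between ligated saline and sham (exact permutation p = 0.00216 and adjusted p = 0.00309 for each, n = 6 each). These pairs too were chosen after the values were seen, so their p-values describe the gap and are no independent test. Id1 also changed by 0.77 more than Id3, with overlap (exact permutation p = 0.0152, adjusted p = 0.0152).

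**Figure D2:**
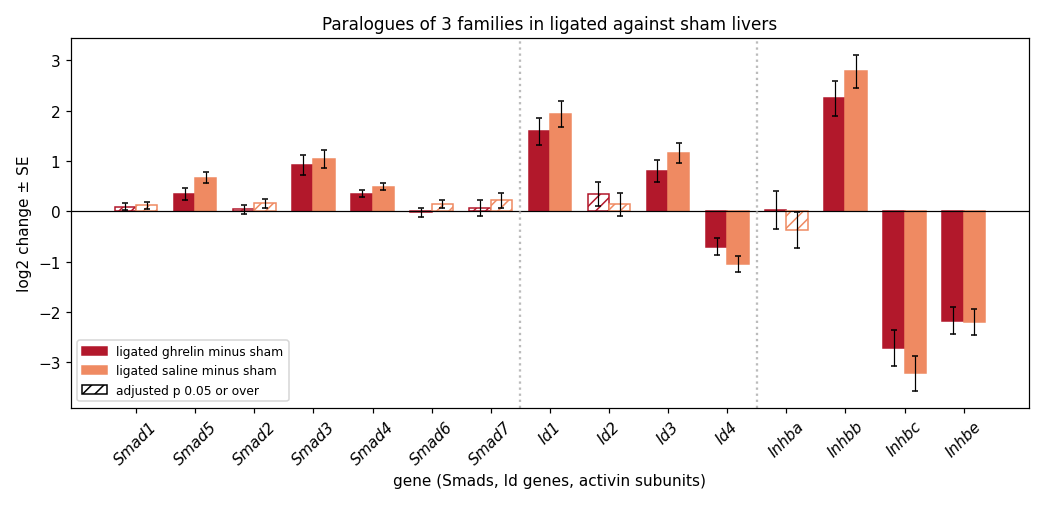
Log2 change ± SE (y axis) of Smads, Id genes and activin subunits (x axis) for ligated ghrelin minus sham and ligated saline minus sham, which share the sham arrays (n = 5, 6 and 6). Hatched bars did not reach an adjusted p under 0.05. Within each family some genes rose and others did not: Smad3, Smad4 and Smad5 against Smad1, Smad2, Smad6 and Smad7, Id1 and Id3 against Id2 and Id4, and Inhbb against Inhbc and Inhbe.

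Inhba encodes the activin beta A subunit, a ligand of the Smad2 and Smad3 branch, and its 2 tested probe sets differed in call. On the representative, 1383486_at, it read 9.17, 9.15, 9.59, 8.98 and 7.75 in ligated ghrelin livers. It ranged from 8.26 to 8.80 with a median of 8.53 in ligated saline livers, and from 7.85 to 10.05 with a median of 8.76 in sham livers. The sham arrays alone spanned over 2 log2 units, and the ligation difference was -0.37 with a 95% interval of -1.12 to 0.38 (limma, adjusted p = 0.381). On 1369012_at the values were 5.06, 4.82, 4.80, 4.81 and 4.70 in ligated ghrelin livers. There the lowest, median and highest were 4.41, 4.64 and 4.81 in ligated saline livers and 4.84, 4.98 and 5.19 in sham livers. Ligated saline lay wholly below sham on this probe set, with a change of -0.38 ± 0.0882 (limma, adjusted p = 0.00139). The point estimates of the 2 probe sets are alike and their spreads are not.

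**Figure D3:**
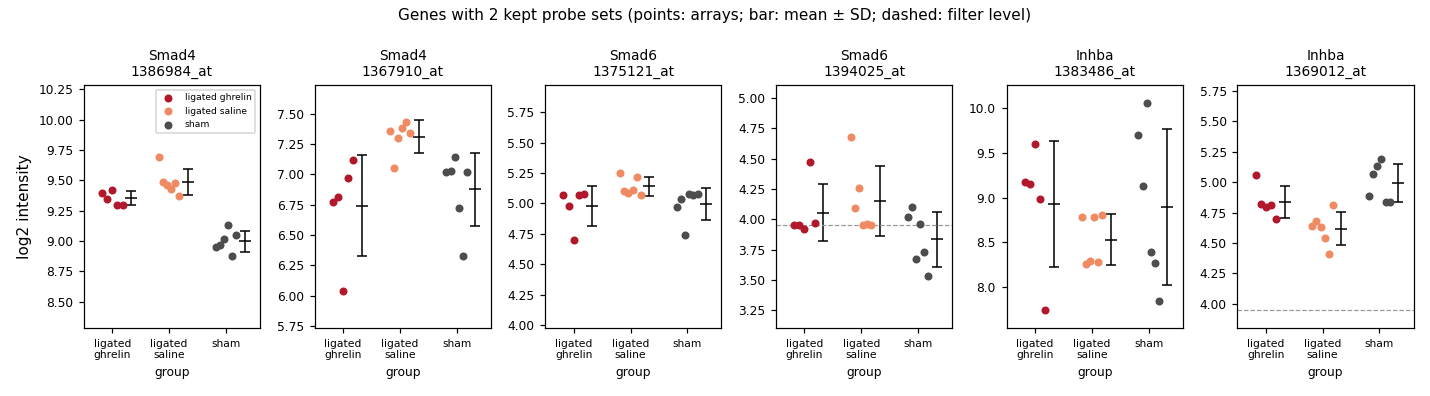
Log2 intensity (y axis) of the 2 tested probe sets each of Smad4, Smad6 and Inhba in ligated ghrelin, ligated saline and sham livers (x axis), with 1 point per array, the mean ± SD, and the filter level of 3.95 as a dashed line where it falls in the range. Smad4 on 1386984_at separates ligated from sham arrays and on 1367910_at does not, and ligated ghrelin 3 is the lowest array on 1367910_at, at 6.04.

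Ghrelin infusion changed none of the 10 member genes at an adjusted p under 0.05 in limma, and no member separated the ligated ghrelin from the ligated saline arrays. Among all genes tested 2.34% were called in this comparison, 1.76% as higher and 0.585% as lower, and 4.53% did not overlap (3.04% above and 1.49% below), so a count of 0 of 10 is near the background. At an unadjusted limma p under 0.05 there was 1 member, Skil. The exact permutation p, not adjusted over genes, was 0.00649 for Smad6, 0.0152 for Skil and 0.0173 for Smad4. For the other members it was 0.115 or higher. The estimates of 9 of the 10 genes were below 0, with a median of -0.15 over the members against 0.01 over all genes. Their size depended on the processing. Nearest to 0 among the processing alternatives they were -0.05 for Smad2 and Bambi, -0.06 for Smad3, -0.07 for Smad4 and -0.40 for Skil. Farthest from 0 they were -0.12 for Smad2, -0.13 for Bambi and Smad3, -0.35 for Smad4 and -0.53 for Skil. The lowest adjusted p of Smad4 over these alternatives was 0.0585 (limma). The median over all tested probe sets was -0.02 as deposited and 0.05 with array medians set equal. Stellate cell and myofibroblast markers were also lower with ghrelin in 2 of 13 cases, with a median of -0.58 over the list and none called higher. These were Col3a1, a fibrillar collagen (-0.68 ± 0.145, limma, adjusted p = 0.0342), and Rgs5, a pericyte marker (-0.70 ± 0.158, adjusted p = 0.0389). The summed intensity of the 13 markers was 12200 to 15600 in ligated ghrelin livers and 14500 to 28900 in ligated saline livers. None of 8 cholangiocyte, 8 macrophage, 9 hepatocyte, 9 endothelial, 4 neutrophil or 5 lymphocyte markers was called for ghrelin. The medians of these lists were, in that order, -0.22, -0.23, 0.01, -0.05, 0.43 and -0.50. The summed intensity of the lymphocyte markers was 873 to 1490 in ligated ghrelin livers and 1270 to 2310 in ligated saline livers. The part of stellate cells, lymphocytes or other cell types in the ghrelin estimates of the members was not tested.

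Skil had the largest difference in size. All 5 ligated ghrelin arrays lay below the ligated saline mean of 10.79 ± 0.247 (SD, n = 6), with a ligated ghrelin mean of 10.27 ± 0.249 (n = 5). The groups overlapped between 10.45 and 10.57, and the difference was -0.52 ± 0.173 with a 95% interval of -0.89 to -0.15 (limma, adjusted p = 0.104, exact permutation p = 0.0152). Over the settings tried the adjusted p of this difference ranged between 0.0485, without sham 4, and 0.239. Compared with sham, Skil was 2.57-fold in ligated saline and 1.79-fold in ligated ghrelin livers, values that share the sham arrays.

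For Id1 the ghrelin difference was -0.33 (95% interval -0.91 to 0.25, limma, adjusted p = 0.502). For Id3 it was -0.36 (-0.81 to 0.09, adjusted p = 0.345), and -0.19 without ligated ghrelin 3. Both intervals contain 0. For Bambi, whose interval is -0.43 to 0.17, the estimate was -0.13 (limma, adjusted p = 0.650). The estimates for Smad2, Smad3, Smad4, Smad6 and Smad7 ran from -0.16 to -0.12 (limma, adjusted p between 0.274 and 0.751). Inhba was the 1 member with a positive estimate, 0.40 (-0.38 to 1.18, limma, adjusted p = 0.565), and its second probe set gave 0.22 (adjusted p = 0.186).

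The second Smad4 probe set, 1367910_at, differed by -0.57 ± 0.172 (limma, adjusted p = 0.0794, exact permutation p = 0.00649, n = 5 and 6). Its ligated ghrelin values were 6.77, 6.81, 6.04, 6.97 and 7.12, and without ligated ghrelin 3 the difference was -0.40 (limma, adjusted p = 0.140). Ligated ghrelin 3 also had the highest 3′ minus 5′ log2 value of the actin and GAPDH controls, which reads RNA integrity, at 2.62 and 0.62. The other 16 arrays ran no higher than 2.37 and 0.28. The part of RNA integrity in the Smad4, Smad6 and Id3 values of this array was not tested.

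**Figure D4:**
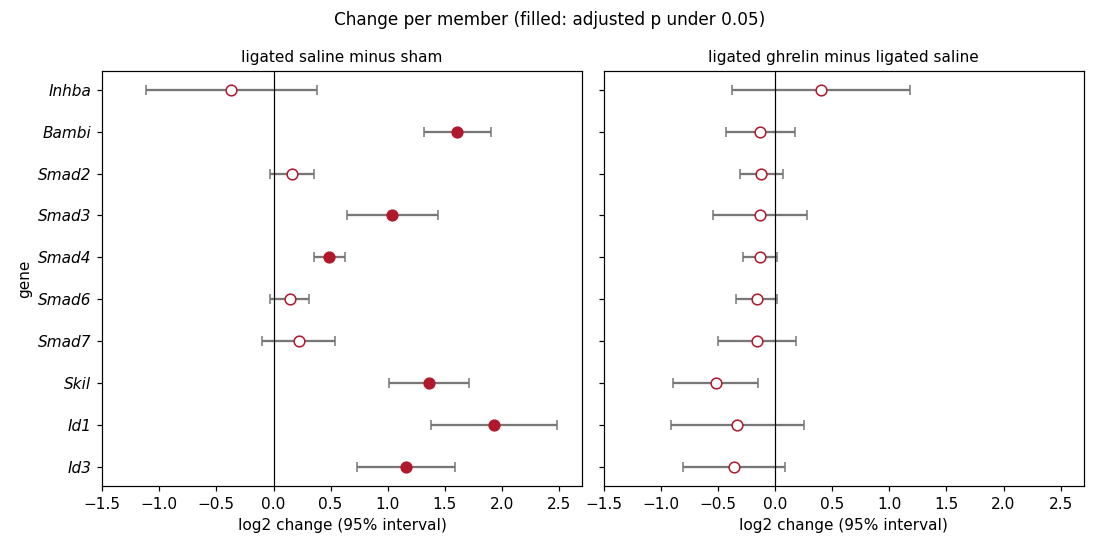
Log2 change with its 95% interval (x axis) for each member (y axis), for ligated saline minus sham on the left and ligated ghrelin minus ligated saline on the right, with filled points at an adjusted p under 0.05 (limma, n = 5, 6 and 6 arrays). On the left 6 intervals lie wholly above 0, and on the right the interval of Skil, from -0.89 to -0.15, is the 1 that leaves out 0, with no filled point.

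Against sham, ligated ghrelin livers had 6 of 10 members higher and none lower, with 5 not overlapping. Of all genes tested 56.2% were called in this comparison, 35.0% as higher and 21.2% as lower, and 39.0% did not overlap (24.9% above sham and 14.0% below). The changes were 1.59 ± 0.274 for Id1, 1.49 ± 0.143 for Bambi, 0.92 ± 0.196 for Smad3, 0.84 ± 0.173 for Skil, 0.80 ± 0.212 for Id3 and 0.35 ± 0.0687 for Smad4 (limma, adjusted p between 3.9e-07 and 0.0044). The member that overlapped was Id3. The call of Smad4 was lost when its 2 probe sets were averaged (0.11, adjusted p = 0.362). Under quantile normalization Smad6 was called lower (-0.32, adjusted p = 0.00368). The median over the members was 0.58, against 0.09 over all genes.

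The rest of the pathway was read from 6 lists of 118 further genes, of which 74 were measured above the filter. After ligation 40 of the 74 were higher, 15 lower and 19 not called, so 74.3% were called, beside 64.7% of all genes tested. Of all genes 37.5% were called higher and 27.2% lower, which is also the background for the counts of each list below. The median change of the 74 was 0.34 against 0.07 over all genes. Tgfb3, Inhbb, Rgma, Fstl3, Bmper, Tgif2 and Pmepa1 lay under the filter level on every sham array. These genes were tested only because ligated arrays passed that level, so the filter favoured their calls as higher in these counts. Col1a1, Dcn and Eng of these lists are also on the lists of cell markers described further on. Of the measured genes, Pmepa1 is on both the list of other Smads and cofactors and the list of other target genes. It is counted in each of those lists but not repeated among the 74.

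Among ligands of the TGF-beta and activin branch, 4 of 6 measured genes rose and 2 fell. Tgfb3 rose by 4.30 ± 0.318 (limma, adjusted p = 1.17e-08), at least 9.66-fold since all sham arrays lay under the filter level. Tgfb2 rose by 3.29 ± 0.320 (adjusted p = 2.22e-07). The activin subunits split: Inhbb (beta B) was at least 2.29-fold higher, with 5.15 ± 0.873 in ligated saline and all sham arrays under the filter level. Inhbc (beta C), a subunit made chiefly by hepatocytes, fell to 5.75 ± 0.848 in ligated saline livers, against 8.97 ± 0.495 in sham livers. Inhbe (beta E), also a hepatocyte product, fell to 8.31 ± 0.451 in ligated saline livers, against 10.51 ± 0.481 in sham livers. The changes of Inhbb, Inhbc and Inhbe were 2.78, -3.22 and -2.20 (limma, adjusted p = 2.27e-06, 6.41e-07 and 1.88e-06), so the 3 paralogues of Inhba all moved where Inhba itself was not called on its representative.

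Of the BMP ligands, 4 were measured and 2 rose. Bmp5 rose by 0.81 ± 0.227 (limma, adjusted p = 0.00553) and Bmp2 by 0.45 ± 0.132 (adjusted p = 0.00744). Bmp6, the ligand through which iron raises hepcidin, had a difference of 0.18 (adjusted p = 0.419), and Bmp4 was under the filter level on every array. Of 12 receptors and co-receptors, 4 rose, 3 fell and 5 were not called. The type I receptors Tgfbr1 and Bmpr1a rose by 0.85 ± 0.112 and 0.77 ± 0.127 (limma, adjusted p = 5.72e-06 and 6.38e-05), and the activin type II receptor Acvr2a fell, with a change of -0.70 ± 0.161 (adjusted p = 0.00132). Bmpr2 (0.71, adjusted p = 0.0517) and Acvr1 (-0.18, adjusted p = 0.117) did not pass. Bmpr2 passed without sham 2, sham 3, ligated saline 4 or ligated ghrelin 3 (adjusted p = 0.0439, 0.0392, 0.0244 and 0.0386), and Acvr1 without sham 1 or ligated saline 5 (adjusted p = 0.0413 and 0.0412).

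Among extracellular modulators, 6 of 7 measured genes rose and 1 fell. Fstl3 and Bmper, among those that rose, lay under the filter level on every sham array. Follistatin-like 1 (Fstl1) rose by 2.18 ± 0.182, and Ltbp1, which stores latent TGF-beta in the matrix, by 3.12 ± 0.261 (limma, adjusted p = 4.47e-08 and 4.59e-08). The BMP and activin antagonists Nog and Grem1 lay under the filter level on every array, and Fst did not pass the filter. Of 26 other Smads, cofactors, corepressors and ubiquitin ligases, 15 rose, 4 fell and 7 were not called. Tgif1, another Smad corepressor, rose by 2.08 ± 0.130 (adjusted p = 2.24e-09), and Pmepa1, a TGF-beta target that sequesters Smad2 and Smad3, by 3.19 ± 0.294 (adjusted p = 1.27e-07, at least 4.08-fold). The ubiquitin ligases Smurf1 and Smurf2 rose by 0.51 and 0.32 (adjusted p = 0.000232 and 0.0139). In the BMP branch, Smad5 rose by 0.67 ± 0.115 (adjusted p = 0.000102), Smad1 had a difference of 0.12 (adjusted p = 0.128), and Smad9 was under the filter level. Smad5 changed by 0.55 more than Smad1, with overlap (exact permutation p = 0.00433, adjusted p = 0.00481, n = 6 each).

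Of 20 other BMP and TGF-beta target genes, 10 rose, 5 fell and 5 were not called. The collagen genes Col1a1 and Col1a2 rose by 4.64 ± 0.289 and 3.81 ± 0.252 (limma, adjusted p = 2.06e-09 and 3.65e-09). Hamp, the hepatocyte target of BMP signalling, averaged 13.16 ± 0.364 in ligated ghrelin livers (SD, n = 5), 12.60 ± 0.942 in ligated saline livers and 13.13 ± 0.477 in sham livers (n = 6 each). Its ligation difference was -0.53 (adjusted p = 0.205).

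**Figure D5:**
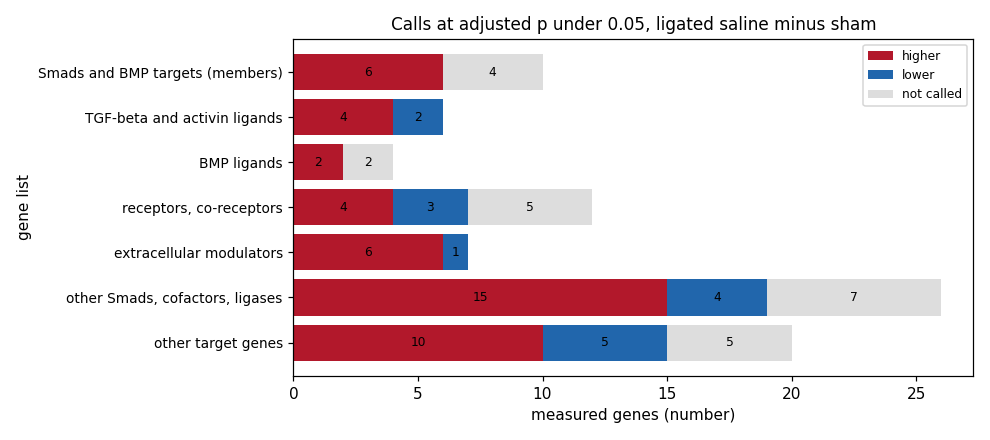
Number of measured genes (x axis) per gene list (y axis) that were higher, lower or not called for ligated saline minus sham at an adjusted p under 0.05 (limma, n = 6 each). The members had 6 higher and none lower, and the largest list, other Smads and cofactors, had 15 higher and 4 lower of 26.

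For ghrelin in ligated rats, 1 of the 74 pathway genes was called (1.35%, beside 2.34% over all genes). It was Tgfbi, a secreted matrix protein induced by TGF-beta. Tgfbi averaged 11.90 ± 0.0963 in ligated ghrelin livers (SD, n = 5), 11.38 ± 0.271 in ligated saline livers and 11.90 ± 0.103 in sham livers (n = 6 each). The difference for ghrelin was 0.52 ± 0.111 (limma, adjusted p = 0.0349) and that for ligation -0.52 ± 0.106 (adjusted p = 0.000498). Both differences use the ligated saline arrays, with opposite sign, so they are not independent. The ghrelin call was lost without any 1 of ligated saline 1, 3, 5 or 6 or ligated ghrelin 1, 2, 3 or 5 (adjusted p between 0.0544 and 0.0979), while the difference stayed between 0.47 and 0.59. It was also lost in a fit of these 2 groups alone (adjusted p = 0.0745).

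Markers of several cell types moved with ligation, and in whole liver fewer cells of a type and less RNA per cell cannot be told apart. The summed intensity of 8 cholangiocyte markers ran from 7290 to 11800 in ligated ghrelin livers, 5910 to 18600 in ligated saline livers and 375 to 720 in sham livers. All 8 were called higher for ligation. For 13 stellate cell and myofibroblast markers the sums were 12200 to 15600 in ligated ghrelin, 14500 to 28900 in ligated saline and 4160 to 5360 in sham livers, with 12 called higher and 1 lower. For 9 hepatocyte markers, which check the labelled tissue, the sums were 244000 to 257000 in ligated ghrelin, 232000 to 254000 in ligated saline and 247000 to 262000 in sham livers, with 3 of 9 called lower. Of the macrophage markers 7 of 8 were higher and 1 lower, and of the neutrophil markers 4 of 4 were higher. The cholangiocyte markers Cftr, Sctr and Cldn4, the stellate marker Thy1 and the neutrophil marker Csf3r lay under the filter level on every sham array. These markers were tested only because ligated arrays passed that level, so the filter favoured their calls as higher. Of 5 lymphocyte markers 3 were higher and 1 lower, and of 9 endothelial markers 4 were higher and 1 lower. The part of these cell types in the member changes was not tested.

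Within the ligated saline group, arrays 1, 3 and 5 had the 3 highest values of Bambi, Skil and Smad3. The same 3 arrays had cholangiocyte marker sums of 18600, 17100 and 15400, against 5910, 7810 and 7180 in arrays 2, 4 and 6. Stellate sums were 28900, 25000 and 21800 in arrays 1, 3 and 5, against 28700, 14500 and 20400 in arrays 2, 4 and 6. Skil read 10.79 to 2 decimals in both array 3 and array 6. Id1 and Id3 had a different order, with array 5 lowest for each. In ligated ghrelin livers the order from high to low was 4, 3, 1, 2, 5 for the cholangiocyte sums. There it was 4, 1, 5, 2, 3 for Bambi, 1, 4, 3, 2, 5 for Skil and 3, 4, 1, 2, 5 for Smad3. The part of either cell type in these orders was not tested.

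Likeness to single members was measured as Pearson's r over the 17 arrays after each group's mean was taken out, across 9735 other genes, as a description without a test. The most alike genes were Pcna, Rfc4 and Fam167b for Id1 (r = 0.87, 0.87 and 0.85). For Id3 they were Dnm1l, Actr2-ps1 and Ing4 (r = 0.91, 0.85 and 0.85). For Smad7 they were Selenbp1, Cyp2e1 and Rbp7 (r = 0.82, 0.81 and 0.79). Among the members themselves, Id1 and Id3 had r = 0.47, Bambi and Smad6 0.65, and Inhba and Smad6 -0.65.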

How the data were processed

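RNA of 17 rat livers was measured with 1 array each. Per the submitters' processing notes the authors made the deposited intensity values, 1 per probe set and linear in scale, with GCRMA. The sources used here do not give its version or settings. GCRMA corrects background and normalizes between arrays. The array medians of the deposited intensities still differed between groups. They were 15.4 to 16.4 in ligated ghrelin, 16.1 to 17.5 in ligated saline and 14.2 to 14.7 in sham livers. Values were converted to log2 without a pseudocount, and 57 control probe sets were left out. A probe set was kept above 15.5 on no fewer than 5 arrays, as many as the smallest group holds (15965 of 31042). Per the platform annotation, 20826 probe sets have 1 symbol, 436 several and 9780 none. Where a gene had several kept probe sets, that with the highest overall mean stood for it (9736 genes).

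A model of 3 group means was fitted by limma 3.58.1 (R 4.3.3, 14 residual and 2.54 prior degrees of freedom, no covariates), with Benjamini-Hochberg adjustment over kept probe sets. The fit was tested on simulated data. Single values were tested by exact two-sided permutation over arrays, where the smallest p is 0.00216. Named genes were the members, the 2 called genes of each pathway list with the lowest p for ligation and the 1 for ghrelin, 26 fixed pathway genes, and the 3 genes most like Id1, Id3 and Smad7. Of the fixed genes, Ski and Gdf2 had no probe set listed with that symbol alone, and 1 is not reported here. The members, lists and rules were chosen with earlier results of these data known. Promoters and positions are from RefSeq, GRCr8. The labels do not say whether rats shared a cage, litter or array day, and no 2 arrays were identical.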

Additional observations from a re-analysis of the deposited data

Results flagged for a closer look

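In 54 groups of 5 or 6 arrays (18 member probe sets in 3 groups), an array lying far from the others of its group was found 6 times, and chance alone marks about 1 in 20 groups. The 54 groups come from the same 17 arrays and are not independent. Skil in sham 4 was 8.73, with the nearest sham array at 9.40. Smad4 on 1367910_at in ligated saline 2 was 7.05, with the nearest at 7.30. Smad6 on 1375121_at was 4.70 in ligated ghrelin 3 (nearest 4.98) and 4.74 in sham 3 (nearest 4.97). Smad6 on 1394025_at in ligated ghrelin 4 was 4.47 (nearest 3.97). Smad6 on 1377467_at in sham 2 was 2.71 (nearest 2.39), under the filter level.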

How the results depend on the processing

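The alternatives were quantile normalization, array medians set equal, no filter, a filter at 2 times the level, an intensity trend with robust moderation, array quality weights, a fit on the compared groups alone, the mean of all kept probe sets of a gene, log2 of the value plus 16, and leaving out each of 17 arrays. The number of members called for ligated saline minus sham was 6 except in 3 settings with 7. These were quantile normalization (6 higher and 1 lower, Smad6), averaged probe sets (7 higher, with Smad6) and leaving out ligated saline replicate 2 (7 higher, with Smad2), so leaving out 1 array gave 6 to 7. For ligated ghrelin minus sham it was 6 except 5 when probe sets were averaged and 7 under quantile normalization (6 higher and 1 lower, Smad6, -0.32, limma adjusted p = 0.00368). For ligated ghrelin minus ligated saline it was 0, except 1 (Skil, -0.52, limma adjusted p = 0.0485) without sham replicate 4, so leaving out 1 array gave 0 to 1. Of 78 recomputed counts of called members 77 were within 1.5 times the count as deposited, and 49 of 936 list counts moved by more than that. For ligation these include lower receptors (5 after either scaling, 3 as deposited) and higher cofactors (9 with equal medians, 15 as deposited). Lower counts for ligation also grew without a filter. They were 4 for TGF-beta and activin ligands (2 with the filter), 3 for BMP ligands (0), 4 for extracellular modulators (1) and 8 for other targets (5).

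The sign turned 30 times among 1726 recomputed values of single genes and probe sets, each time for a value not called as deposited. Quantile normalization gave, for ligation, Smad6 -0.24, Smad7 -0.04 and Bmp6 -0.13, and for ligated ghrelin minus sham Smad2 -0.04, Smad7 -0.14 and Inhba -0.01. Equal medians gave, for ligation, Smad2 -0.03, Smad6 -0.05, Smad1 -0.07, Id2 -0.04 and Bmp6 -0.01, and for ligated ghrelin minus sham Smad2 -0.08, Smad7 -0.06 and Inhba -0.09. Averaging probe sets gave Smad1 -0.09 and Acvr1 0.13 for ligation, and Smad6 0.10 and Inhba -0.06 for ligated ghrelin minus sham, and quality weights gave Smad6 0.02 there. Leaving out 1 array gave ranges of -0.18 to 0.32 for Inhba, -0.01 to 0.15 for Smad7, -0.07 to 0.05 for Smad6 and -0.25 to 0.04 for Smad4 on 1367910_at (ligated ghrelin minus sham), -0.01 to 0.32 for Bmp6 (ligation) and -0.20 to 0.01 for Smad6 on 1394025_at (ghrelin). The cause was not tested. Equal medians also ended the calls of Bmp2 and Smurf2 for ligation (adjusted p = 0.0851 and 0.241), quantile normalization that of Smurf1 (0.244), the fit on the compared groups that of Tgfbi for ghrelin (0.0745), and either scaling that of Smad4 on 1367910_at (0.205 and 0.273). Acvr1 passed with equal medians (-0.37, adjusted p = 0.00314), Smad1 without a filter (0.12, 0.0472), and Smad6 on 1394025_at without sham replicate 2 or ligated ghrelin replicate 4 (0.0407 and 0.0446).

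Scaling also moved the share of higher calls for ghrelin, which was 59.2% of 355 called probe sets as deposited, 67.3% of 541 after quantile normalization and 80.4% of 611 with equal medians, and for ligated ghrelin minus sham 56%, 43.8% and 43.1%. No paired analysis was possible because the titles number the 17 rats in a single run and give no shared number to rats of different groups. With 5 to 6 arrays a group, changes of members smaller than their intervals could not be detected, and the 5 member probe sets under the filter level carry no usable difference.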
